A study of Mus musculus with 20 samples.

Results

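The genes described here are the 3 NR4A nuclear receptors, Nr4a1, Nr4a2 and Nr4a3, and 3 early growth response factors, Egr1, Egr2 and Egr3. The rule that picks their rows uses the symbol alone, and they are 6 of 23992 gene symbols in the deposited tables. For each symbol the transcript with the most reads over the 20 libraries was kept. RNA-seq was carried out on mouse T cells that were left unstimulated or were given 200 nM IL-2 or 200 nM IL-2-REH for 90 min or 4 hr. IL-2-REH is a partial agonist, an IL-2 with substitutions on the face that meets the common gamma chain. Tregs were GFP+ cells sorted from spleen and lymph node of B6-Foxp3EGFP mice, in which GFP marks cells that express Foxp3, with 3 libraries in each of 5 conditions. CD8+ T cells came from C57BL/6J mice by a cell isolation kit, with 1 library in each condition. The labels give the strain as C57BL/6N for every sample, and ages and numbers of animals are not given in the sources used here. Nothing states that replicates came from separate animals, so the p-values measure the spread between these libraries, which may be technical. No library was cultured without cytokine for 90 min or 4 hr, so the effects of cytokine and of time in culture cannot be told apart in any comparison with unstimulated cells.

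NR4A and EGR genes are immediate early genes, whose transcription starts from factors already present in the cell and needs no new protein. In T cells they are known for being switched on by the T cell receptor, through calcium and NFAT and through RAS and ERK, and their transcripts are short-lived. NR4A receptors bind DNA without a known physiological ligand and help maintain Foxp3 expression in Tregs. EGR factors are zinc finger proteins that bind GC-rich sites, and EGR2 and EGR3 restrain T cell activation. IL-2 itself signals mainly through JAK kinases and STAT5, whose direct targets include Cish and the Socs genes.

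Promoter sequence from RefSeq (GRCm38.p6, 250 bases before to 50 after an annotated start site of a gene) was held for 4 of the 6 members, Nr4a1, Nr4a2, Nr4a3 and Egr2. The stretches printed show what the NR4A promoters share. Capitals mark the core CGTCA of the cyclic AMP response element, or TGACG on the other strand, the motif that CREB-type factors read. The Nr4a1 stretch is chr15:101266596-101266845 (plus strand), the Nr4a2 stretch chr2:57124004-57124253 (minus strand), the Nr4a3 stretch chr4:48045055-48045107 (plus strand) and the Egr2 stretch chr10:67537793-67537822 (plus strand). The first pair are the 250 bases before the start, and the others were shortened so that little transcribed sequence is shown.
Nr4a1: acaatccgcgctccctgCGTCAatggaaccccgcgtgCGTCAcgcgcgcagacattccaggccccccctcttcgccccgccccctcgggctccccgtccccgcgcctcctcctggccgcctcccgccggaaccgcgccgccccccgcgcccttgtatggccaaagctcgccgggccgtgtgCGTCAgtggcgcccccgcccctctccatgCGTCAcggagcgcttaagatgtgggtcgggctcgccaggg
Nr4a2: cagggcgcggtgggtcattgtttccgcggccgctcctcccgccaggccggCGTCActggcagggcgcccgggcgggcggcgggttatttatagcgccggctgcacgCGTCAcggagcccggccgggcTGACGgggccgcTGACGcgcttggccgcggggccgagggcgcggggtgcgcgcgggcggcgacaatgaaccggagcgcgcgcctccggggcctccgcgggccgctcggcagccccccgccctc
Nr4a3: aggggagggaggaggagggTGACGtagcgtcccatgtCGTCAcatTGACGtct
Egr2: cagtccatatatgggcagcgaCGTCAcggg
Each of the 3 NR4A windows held 4 such cores, all before the start site that the window is built on. The shortened Nr4a3 stretch shows 3 of its cores. For Nr4a1 (chr15:101266846), Nr4a3 (chr4:48045305) and Egr2 (chr10:67537869 for the printed stretch), that site lies inside the gene span given below. All cores of Nr4a1 and Egr2 lie within that span, as does the whole printed Nr4a1 stretch. The Nr4a3 core farthest from the start site overlaps the beginning of the span, and its other cores lie within it. At least 1 core was in 20.8% of 32851 windows over all genes, and at least 4 were in 0.231%. The table lists 5 windows for Egr2, which overlap in part, and the 3 that hold the printed stretch each had 2 cores and a CArG box, the element read by SRF, which was in 1.63% of windows. The CArG box starts 72, 73 or 133 bases before the start, depending on the window, and is the run ccatatatgg in the Egr2 stretch. The EGR site GCGGGGGCG was found once in the Nr4a1 window, 60 bases before the start, and in 2.91% of all windows. The full element TGACGTCA, found in 1.79% of all windows, was in no member's window. Also searched on both strands were the NFAT core GGAAA, the NR4A site AAAGGTCA, the EGR site GCGTGGGCG, the AP-1 site TGANTCA and the STAT site TTCNNNGAA. Of these, NFAT cores were found in Nr4a2 (1) and Egr2, against 61.3% of all windows, and the other sites were not found in a member's window. The full element contains the core, so those searches overlap.

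The 6 genes lie on 6 chromosomes of the mouse genome (GRCm38.p6 coordinates). Nr4a1 is at chr15:101253902-101274795 on the plus strand, Nr4a2 at chr2:57106830-57124003 on the minus strand, and Nr4a3 at chr4:48045078-48086447 on the plus strand. Egr1 is at chr18:34861207-34864956, Egr2 at chr10:67534469-67542188 and Egr3 at chr14:70077317-70082613, all on the plus strand. No other annotated gene overlaps any of them. The counted transcripts were NM_010444, NM_013613, NM_015743, NM_007913, NM_010118 and NM_018781 in the order above. The counted length of Nr4a3 was 1884 bases, equal to its coding sequence, against 5720 bases for the GENCODE transcript, and that of Egr3 was 1416 against 3940. RPKM values (reads scaled to transcript length and library size) therefore compare one gene across libraries more safely than one gene with another.

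Reads on genes ranged from 20201392 to 63903764 in Tregs and from 38201668 to 45189835 in CD8+ T cells, and all 6 members passed the filter on low counts. The labels fitted the cell types, with Treg markers (Foxp3, Il2ra, Ctla4, Ikzf2, Cd4) summing to between 505 and 1061 RPKM in Tregs against 12.6 to 28.3 in CD8+ T cells, and Cd8a with Cd8b1 summing to 282 to 728 in CD8+ T cells against 4.46 to 12.7 in Tregs. Unstimulated Treg replicate 1 stood apart. In it, 456 of 10473 expressed genes were more than 1 log2 unit above both other unstimulated libraries and 635 were more than 1 below both, against 23 and 29 for replicate 2 and 51 and 18 for replicate 3. Ramp3, a receptor activity-modifying protein listed here among the IL-2 targets, was at 219 RPKM there and at 2.91 and 2.2503 in replicates 2 and 3. Cish, a STAT5 target, was at 54.7, 65.5 and 54.0, so it did not stand apart. The members' comparisons with unstimulated Tregs are therefore also given without that library where it changes them. Replicate 1 libraries also held the least macrophage marker RNA (8 genes, summed RPKM 8.84 to 17.02, against 29.4 to 80.5 in replicate 2 and 21.1 to 61.6 in replicate 3). Replicate 3 libraries held the most erythroid marker RNA (6 genes, 132 to 231, against 5.33 to 20.5 in the other Treg libraries). The C1qa and C1qb markers were at 0 reads in replicate 1 with IL-2-REH at 4 hr. The part of these differences in the results was not tested. In bulk RNA, fewer cells of a type and less RNA per cell cannot be told apart.

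**Figure D1:**
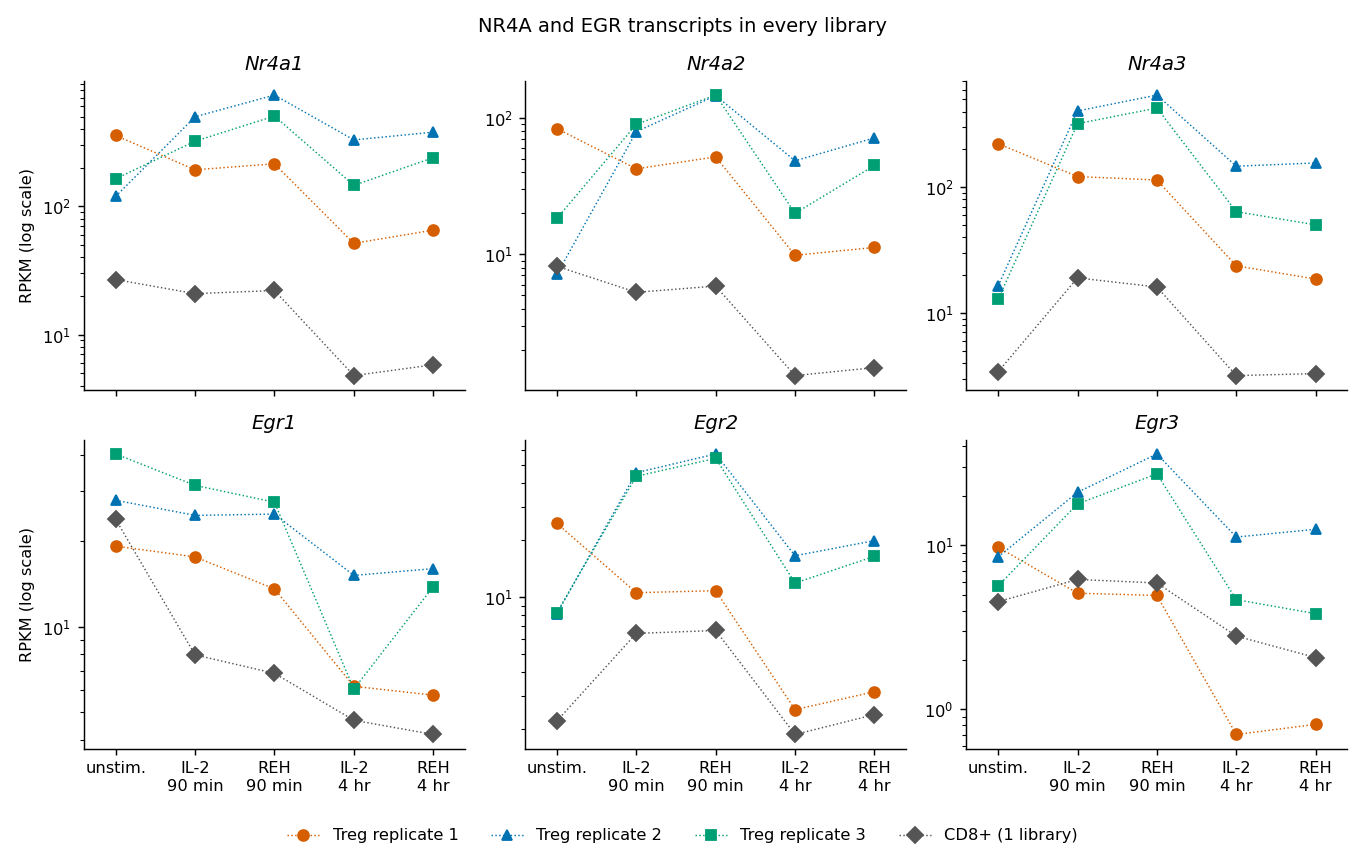
RPKM (log axis) of each of the 6 genes in every library, by condition, with 1 symbol for each Treg replicate and 1 for the CD8+ T cells; dotted lines join libraries of the same replicate number. Treg replicates 2 and 3 peak at 90 min for every gene but Egr1, Treg replicate 1 is highest unstimulated, and the CD8+ values lie lowest for Nr4a1, Nr4a3 and Egr2 in every condition.

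Nr4a1, or Nur77, is the NR4A receptor most used as a reporter of T cell receptor signals. Its level in Treg replicates 1, 2 and 3, the order used throughout, was 356, 119 and 164.02 RPKM unstimulated. At 90 min it was 192, 498 and 321 RPKM with IL-2 and 214, 736 and 505 under IL-2-REH. At 4 hr it was 51.4, 329 and 146 RPKM with IL-2 and 65.2, 378 and 239 under IL-2-REH. The highest value, in replicate 2 with IL-2-REH at 90 min, ranked 75 among all symbols in that library. Replicate 1 had the highest unstimulated value and the lowest value in every cytokine condition, and the groups overlapped.

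Nr4a2, also called Nurr1, is known outside immunity for its role in dopamine neurons and acts beside the other NR4A receptors in Tregs. Unstimulated, it was at 83.3, 7.13 and 18.3 RPKM, the widest unstimulated spread after Nr4a3. At 90 min it was at 42.3, 79.1 and 89.5 RPKM with IL-2 and at 51.7, 145 and 147 under IL-2-REH. At 4 hr it was at 9.84, 48.4 and 19.98 RPKM with IL-2 and at 11.2, 71.3 and 44.8 under IL-2-REH. Replicates 2 and 3 were lowest unstimulated and highest at 90 min, while replicate 1 was highest unstimulated.

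Nr4a3, or NOR1, varied most among the NR4A genes, 42.4-fold between the lowest and highest Treg library. It was at 222, 16.4 and 12.8 RPKM unstimulated, at 122, 405 and 321 with IL-2 for 90 min and at 114, 542 and 427 under IL-2-REH for 90 min. At 4 hr it was at 23.7, 147 and 63.9 RPKM with IL-2 and at 18.6, 156 and 50.2 under IL-2-REH. In replicates 2 and 3 every cytokine library was above the unstimulated library of the same number, and in replicate 1 every one was below it.

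The make-up of the family shifted mainly between Nr4a1 and Nr4a3. Of the summed NR4A RPKM, Nr4a1 made up 83.5% and 84.1% in unstimulated Treg replicates 2 and 3 but 53.8% in replicate 1. At 90 min its share was between 43.9% and 56.4% in all 6 Treg libraries, and at 4 hr between 60.5% and 71.6%. The Nr4a3 share moved the other way, from 11.5% and 6.56% in unstimulated replicates 2 and 3 (33.6% in replicate 1) to between 30.02% and 43.8% at 90 min and between 15.02% and 28.0% at 4 hr. Nr4a2 stayed between 4.99% and 13.6% in the Treg libraries, and lay between 11.7% and 21.3% in the CD8+ libraries. Since Nr4a3 was counted on its coding sequence alone, the shares describe change between libraries and not molar amounts.

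**Figure D2:**
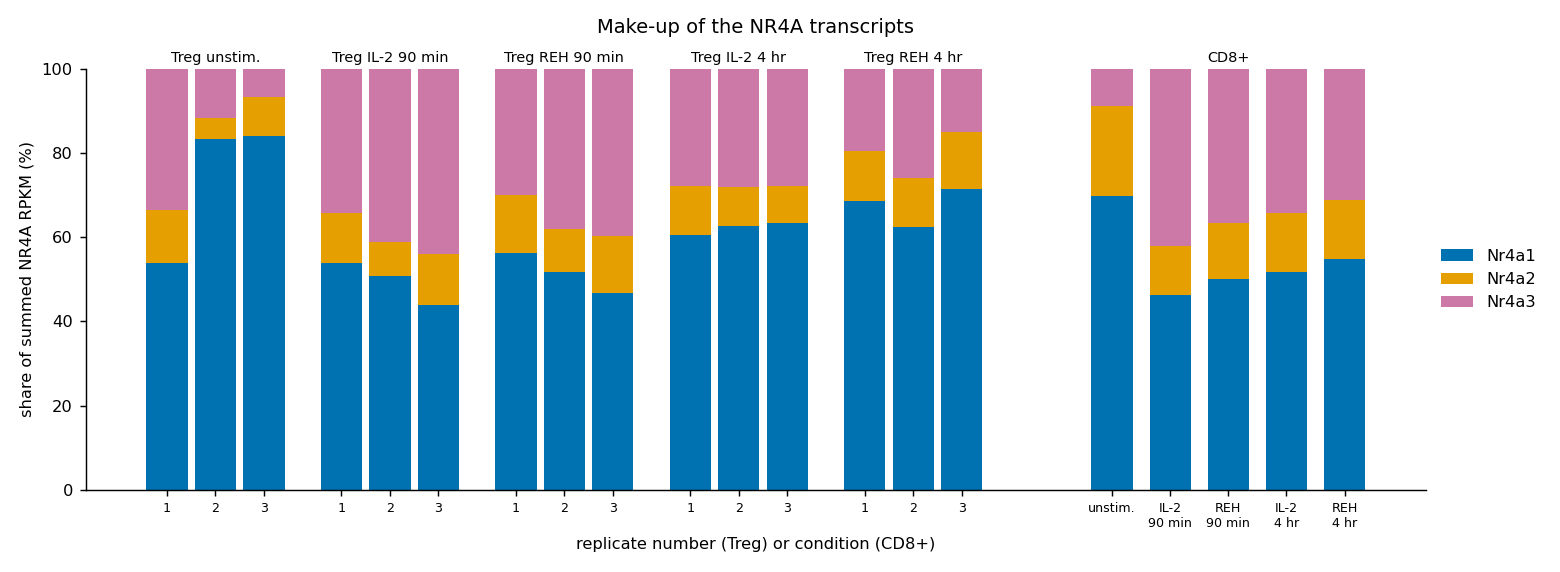
Stacked bars give the percent of summed NR4A RPKM that came from Nr4a1, Nr4a2 and Nr4a3 in each of the 20 libraries, 1 bar per library. Nr4a1 takes 83.5% and 84.1% in unstimulated Treg replicates 2 and 3, replicate 1 looks like the 90 min libraries at 53.8%, and the CD8+ libraries show the same widening of the Nr4a3 share at 90 min.

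Egr2, a zinc finger factor tied to T cell anergy and tolerance, was at 24.5, 8.16 and 8.27 RPKM in unstimulated Tregs. At 90 min it was at 10.53, 45.5 and 43.6 RPKM with IL-2 and at 10.8, 57.3 and 54.3 under IL-2-REH. At 4 hr it was at 2.53, 16.5 and 11.9 RPKM with IL-2 and at 3.15, 19.9 and 16.4 under IL-2-REH. Replicates 2 and 3 lay close together unstimulated and at 90 min, and replicate 1 was below both in each cytokine condition.

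Egr3, which overlaps in function with Egr2, was the scarcest member and the most variable, 51.2-fold between its lowest Treg library (47 reads) and its highest (3835 reads). It was at 9.73, 8.48 and 5.65 RPKM unstimulated, at 5.10, 21.0 and 17.9 with IL-2 for 90 min and at 4.94, 36.0 and 27.2 under IL-2-REH for 90 min. At 4 hr it was at 0.703, 11.2 and 4.66 RPKM with IL-2 and at 0.810, 12.5 and 3.83 under IL-2-REH. The unstimulated libraries were closer together for Egr3 than for any NR4A gene.

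Egr1, the founding member of its family and a target of ERK through SRF, had another time course. It was at 19.2, 27.8 and 40.4 RPKM unstimulated, at 17.6, 24.6 and 31.3 with IL-2 for 90 min and at 13.6, 24.8 and 27.3 under IL-2-REH for 90 min. At 4 hr it was at 6.17, 15.1 and 6.03 RPKM with IL-2 and at 5.74, 16.0 and 13.8 under IL-2-REH. It was highest unstimulated in all 3 replicates, replicate 1 included, where it did not share the high level of the NR4A genes and Egr2.

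At 90 min, none of the 6 members passed edgeR's quasi-likelihood test against unstimulated Tregs when all 15 Treg libraries were used, and the direction depended on the replicate. In replicates 2 and 3 the NR4A genes, Egr2 and Egr3 were 1.96-fold to 25.1-fold above the same-numbered unstimulated library with IL-2, and 3.08-fold to 33.4-fold above it under IL-2-REH. In replicate 1 the same 5 genes were at 0.429 to 0.548 of the unstimulated level with IL-2 and 0.440 to 0.621 under IL-2-REH. Egr1 was below the unstimulated level in 3 of 3 pairs with each cytokine, at 0.776 to 0.917 of it with IL-2 and 0.677 to 0.894 under IL-2-REH. The 0 members called compare with 0.854% of 14992 genes for IL-2 and 0.0934% for IL-2-REH at a Benjamini-Hochberg adjusted p under 0.05. No member was under 0.05 unadjusted in edgeR, beside 13.8% and 11.4% of genes, and none was called by DESeq2, beside 3.7% and 0.734% of genes. The fitted log2 fold changes with IL-2 were 1.82 ± 1.10 (SE) for Nr4a3, 1.43 ± 0.87 for Egr2, 1.08 ± 0.96 for Egr3, 1.03 ± 0.87 for Nr4a2, 0.77 ± 0.73 for Nr4a1 and -0.06 ± 0.45 for Egr1. With IL-2-REH they were 2.17 ± 1.11, 1.71 ± 0.88, 1.71 ± 0.98, 1.73 ± 0.88, 1.30 ± 0.73 and -0.23 ± 0.45 in the same order. A block for the replicate number, which left 0 calls beside 1.83% and 0.213% of genes, made the IL-2 values of the 5 genes other than Egr1 smaller, for example 1.11 ± 1.21 for Nr4a3 with IL-2. Both comparisons share the unstimulated libraries, as do those at 4 hr.

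Unstimulated replicate 1 was singled out because it stood apart in these data. The NR4A genes, Egr2 and Egr3 were there at 1.38-fold to 15.2-fold the mean of unstimulated replicates 2 and 3, and Egr1 at 0.562 of it. Leaving that library out raises the fitted changes of those 5 genes by itself, so the p-values that follow are no independent support for a rise. Without it, Nr4a3 rose with IL-2 (log2 fold change 4.56 ± 1.08, adjusted p = 0.015 by edgeR), 1 of 6 members against a background of 12.9% of 15494 genes in either direction and 7.09% higher. With IL-2-REH, Nr4a3 (4.92 ± 1.10, adjusted p = 0.012) and Nr4a2 (3.39 ± 0.90, adjusted p = 0.027) rose, against 12.1% and 6.95%. With the block as well, 5 of 6 members rose with each cytokine, against backgrounds of 26.9% for IL-2 and 25.4% for IL-2-REH in either direction, or 13.9% and 13.4% higher. In that fit Nr4a3 changed by 5.04 ± 0.33 with IL-2 (adjusted p = 2.5e-06) and by 5.29 ± 0.34 under IL-2-REH (1.8e-06), and Egr2 by 2.80 ± 0.16 (2.1e-06) and 3.02 ± 0.17 (1.2e-06). Nr4a2 changed by 3.19 ± 0.47 with IL-2 (adjusted p = 0.00047) and 3.80 ± 0.48 under IL-2-REH (0.00017). Nr4a1 (1.93 ± 0.31 and 2.37 ± 0.32) and Egr3 (2.05 ± 0.33 and 2.47 ± 0.34) also passed, with adjusted p from 0.00025 to 0.00085. Egr1 was not called, at 0.06 ± 0.31 with IL-2 and -0.14 ± 0.30 under IL-2-REH. Beside the rise, macrophage markers summed to 61.6 and 80.5 RPKM in unstimulated replicates 3 and 2 and to at most 44.5 RPKM in any 90 min library. T cell markers were also lower, at 699 and 613 RPKM in unstimulated replicates 3 and 2 and at most 464 RPKM in any 90 min library. The part of these differences in the rise was not tested.

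**Figure D3:**
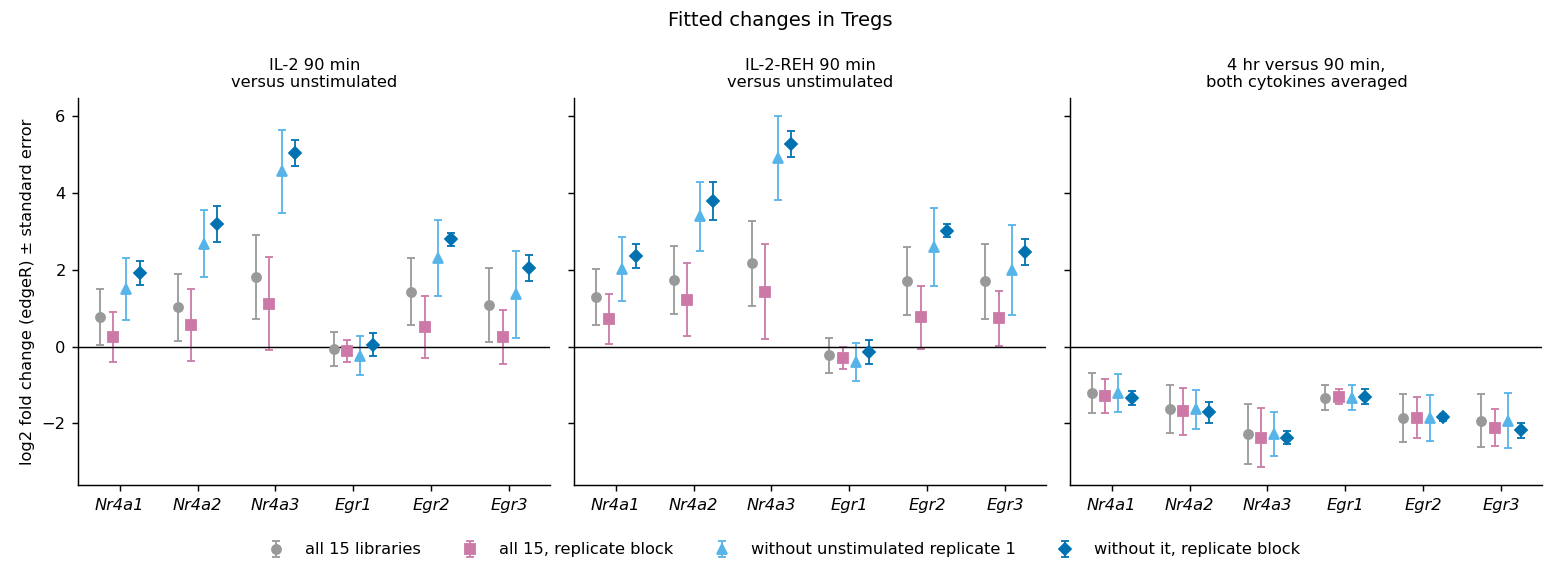
Points are edgeR log2 fold changes and bars 1 standard error for the 6 genes in Tregs, for 90 min with IL-2, 90 min under IL-2-REH, and 4 hr against 90 min, under 4 fits marked by colour and symbol. Leaving out unstimulated replicate 1 lifts Nr4a3 from 1.82 to 4.56 with IL-2, and the 4 hr against 90 min changes lie below 0 for every gene in every fit.

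Between 90 min and 4 hr the data were less divided. All 6 members were lower at 4 hr than at 90 min in 6 of 6 same-numbered pairs (3 replicates with each cytokine), a pattern shown by 15.5% of 10473 expressed genes. Averaged over both cytokines, Egr1 fell by 1.33 ± 0.33 on the log2 scale (edgeR adjusted p = 0.030), the 1 member of 6 called, against 9.64% of 14992 genes called in either direction and 5.26% called lower. The others, all under 0.05 unadjusted as were 30.1% of genes, missed the adjusted threshold: Nr4a3 at -2.28 ± 0.79 (adjusted p = 0.076), Egr3 at -1.92 ± 0.70 (0.087), Egr2 at -1.86 ± 0.63 (0.071), Nr4a2 at -1.63 ± 0.62 (0.10) and Nr4a1 at -1.204 ± 0.52 (0.14). With the replicate block, 4 of 6 were called against 21.2% of genes: Egr1 (-1.30 ± 0.20, adjusted p = 0.0041), Egr3 (-2.11 ± 0.49, 0.016), Egr2 (-1.85 ± 0.53, 0.030) and Nr4a3 (-2.37 ± 0.77, 0.044). Without unstimulated replicate 1, 4 were called (Egr1, Egr2, Nr4a2 and Nr4a3, background 16.7% of 15494 genes, or 9.53% lower). That library is in neither group compared, and enters through the shared estimate of spread, the filter on low counts and the normalization. DESeq2 called 5 against 19.4%. With both changes all 6 fell, by 1.31 to 2.37 on the log2 scale, with adjusted p from 1.5e-06 to 0.0008 and a background of 33.5% (17.6% lower). The Egr1 call was lost when 1 of 3 libraries was left out: adjusted p was 0.060 without replicate 1 with IL-2 at 4 hr, 0.064 without replicate 3 with IL-2 at 4 hr (20201392 reads, the shallowest library), and 0.064 without replicate 3 under IL-2-REH at 4 hr, the Treg library with the most CD8 marker RNA (12.7 RPKM). Macrophage markers were also lower at 4 hr, at 8.84 to 36.3 RPKM against 12.6 to 44.5 RPKM at 90 min. Treg markers summed to 505 to 954 RPKM at 4 hr against 805 to 1061 RPKM at 90 min. T cell markers summed to 245 to 351 against 391 to 412 RPKM with IL-2, and to 362 to 466 against 399 to 464 under IL-2-REH. The part of these differences in the fall was not tested.

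The size of the fall differed by gene and replicate. With IL-2, the 4 hr level was 0.195, 0.363 and 0.199 of the 90 min level for Nr4a3 in replicates 1, 2 and 3, and 0.267, 0.660 and 0.453 for Nr4a1. With IL-2-REH these values were 0.163, 0.288 and 0.118 for Nr4a3 and 0.304, 0.514 and 0.474 for Nr4a1. Replicate 2 kept the largest share of its 90 min level for each of the 6 genes with each cytokine. Egr2 was the most even, at 0.240 to 0.363 of the 90 min level in all 6 pairs.

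Against unstimulated Tregs, the 4 hr libraries gave 0 calls among the 6 members with either cytokine by edgeR, beside 2.26% of 14992 genes with IL-2 and 0.314% under IL-2-REH. Egr1 was the 1 member under 0.05 unadjusted, beside 17.7% and 13.3% of genes, at -1.65 ± 0.47 with IL-2 (adjusted p = 0.085) and -1.30 ± 0.46 under IL-2-REH (0.22). With the replicate block it fell by 1.64 ± 0.29 with IL-2 (adjusted p = 0.0053, background 6.94%, or 4.08% lower) and by 1.38 ± 0.29 under IL-2-REH (0.021, background 3.03%, or 2.01% lower). DESeq2 also called 1 member with IL-2 (background 6.76%) and 0 under IL-2-REH (3.77%). Nr4a3 turned with the choice of libraries, from -0.22 ± 1.06 to 2.91 ± 0.30 with IL-2 and from -0.35 ± 1.06 to 2.68 ± 0.30 under IL-2-REH once unstimulated replicate 1 was left out and the block added (adjusted p = 8.2e-05 and 0.00015, backgrounds 21.0% and 16.7%). In that fit 4 members were called with IL-2 and 5 under IL-2-REH, Egr1 lower and the others higher. Averaged over all 4 cytokine groups, 0 members were called against 1.88% of genes, Egr1 again being the 1 member under 0.05 unadjusted, beside 16.6% of genes. The block called 1 member there (background 6.56%), and the block without unstimulated replicate 1 called 5 (28.3%).

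IL-2-REH and IL-2 were compared at the same dose and times, 6 genes in 2 single-time comparisons and their average, with p-values adjusted over all 14992 genes. No member was called in any of the 3, beside 0.0133% of genes at 90 min, 0.0267% at 4 hr and 0.107% averaged, nor was any under 0.05 unadjusted, beside 149, 559 and 561 genes. DESeq2 and the replicate block also called 0 for the average, beside 0.727% and 0.3% of genes. Nr4a1, Nr4a2 and Egr2 were nonetheless higher with IL-2-REH in 6 of 6 same-numbered pairs, a pattern shown by 10.4% of 10473 expressed genes. The ratio of IL-2-REH to IL-2 for Nr4a2 was 1.22, 1.84 and 1.64 at 90 min and 1.14, 1.47 and 2.24 at 4 hr in replicates 1, 2 and 3. For Nr4a1 it was 1.11, 1.48 and 1.57 at 90 min and 1.27, 1.15 and 1.64 at 4 hr. For Egr2 it was 1.02, 1.26 and 1.24 and then 1.25, 1.203 and 1.39. Egr3 was higher with IL-2-REH in 4 of 6 pairs, and Nr4a3 and Egr1 in 3 of 6.

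The averaged log2 difference, IL-2-REH minus IL-2, with its 95% interval was 0.69 (-0.62 to 1.99) for Nr4a2, 0.43 (-0.67 to 1.53) for Nr4a1, 0.31 (-1.14 to 1.76) for Egr3, 0.29 (-1.01 to 1.59) for Egr2, 0.12 (-1.50 to 1.73) for Nr4a3 and 0.09 (-0.60 to 0.78) for Egr1. These intervals are wide, and they leave room for differences of more than 1 log2 unit in either direction for Nr4a3, Egr2 and Egr3. The block without unstimulated replicate 1 narrowed them, to between 0.02 and 1.13 for Nr4a2, between 0.05 and 0.45 for Egr2 and between -0.35 and 0.36 for Nr4a3, and still called no member (adjusted p = 0.33 for Egr2, the lowest of the 6, against a background of 1.26%). The difference between cytokines did not change detectably with time for any gene of 14992 by edgeR or DESeq2 (0 called, with 47 and 57 genes under 0.05 unadjusted, no member among the 47). Cish served as a contrast in the same libraries. It was lower with IL-2-REH in every pair, at 128, 117 and 97.0 RPKM against 238, 262 and 187 at 90 min, and its averaged log2 difference was -0.93 ± 0.13 (edgeR adjusted p = 0.0072).

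**Figure D4:**
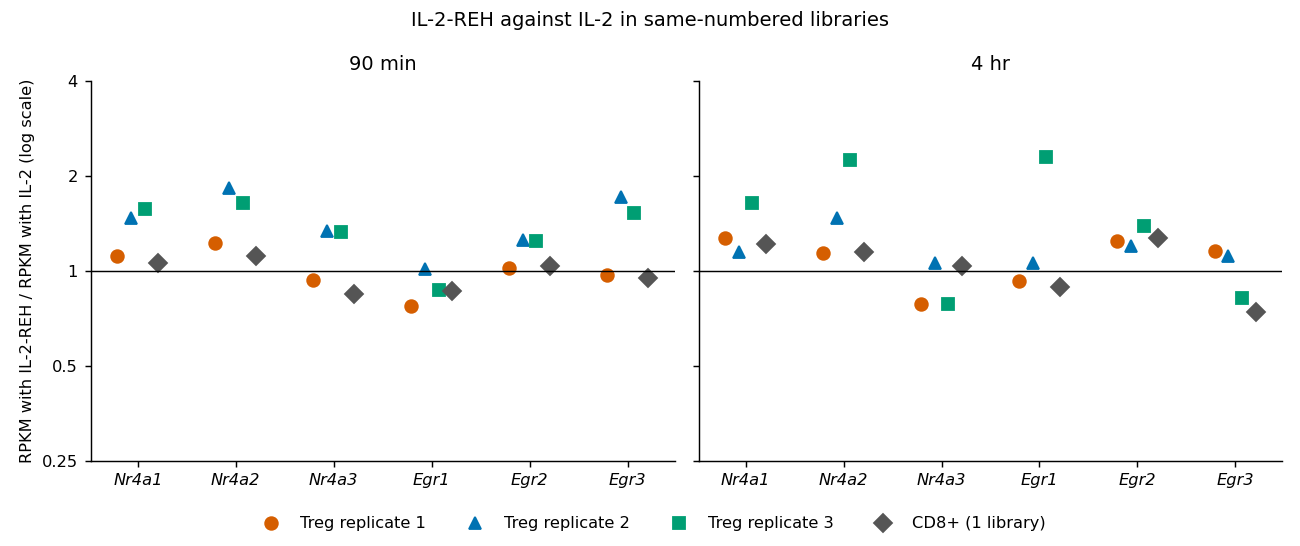
Each point is the RPKM with IL-2-REH divided by the RPKM with IL-2 (log axis) in libraries of the same replicate number, at 90 min and at 4 hr, for 3 Treg replicates and the CD8+ T cells. Nr4a1, Nr4a2 and Egr2 lie above 1 in all 6 Treg pairs, while Egr1 in replicate 3 goes from 0.872 at 90 min to 2.29 at 4 hr.

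In CD8+ T cells, with 1 library per condition and so no test, the members split by time course. Nr4a3 went from 3.40 RPKM unstimulated to 19.0 with IL-2 and 16.1 under IL-2-REH at 90 min, and to 3.17 and 3.28 at 4 hr. Egr2 went from 2.202 to 6.41 and 6.64 RPKM and then to 1.87 and 2.38. Both were thus above the unstimulated level at 90 min and near it at 4 hr, with each cytokine. Egr1 went from 23.8 RPKM to 7.95 and 6.85 at 90 min and to 4.69 and 4.18 at 4 hr. Nr4a1 was at 26.8, then 20.9 and 22.1, then 4.79 and 5.82 RPKM, and Nr4a2 at 8.18, then 5.27 and 5.85, then 1.29 and 1.48. Egr3 had the narrowest range of the 6 genes, 2.99-fold, at 4.53 RPKM unstimulated, 6.19 and 5.89 at 90 min and 2.79 and 2.07 at 4 hr. Every CD8+ value rests on at least 212 reads. The unstimulated CD8+ library also had the highest sum of every marker list read there. Macrophage markers summed to 38.3 RPKM in it and to 14.3 to 21.9 with cytokine, B cell markers to 13.0 and 3.84 to 5.60, T cell markers to 751 and 411 to 486, and Cd8a with Cd8b1 to 728 and 282 to 493. The part of these differences in the lower levels was not tested.

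Counted by a log2 ratio of RPKM + 1 beyond 1, 2 members were higher (Nr4a3 and Egr2) and 1 lower (Egr1) at 90 min with each cytokine, beside 7.24% of 10021 expressed genes past that ratio with IL-2 (2.81% higher, 4.43% lower) and 8.57% under IL-2-REH (2.46% higher, 6.11% lower). At 4 hr, 0 were higher and 3 lower (Nr4a1, Nr4a2 and Egr1) with each cytokine, beside 4.71% (1.31% higher, 3.4% lower) and 6.11% (1.78% higher, 4.33% lower) of genes. Between IL-2-REH and IL-2, 0 of 6 members passed at either time, beside 0.868% and 2.23% of genes. The ratios were 0.847 to 1.11 at 90 min and 0.740 to 1.27 at 4 hr. In the same libraries 8 of 11 expressed IL-2 and STAT5 target genes were lower with IL-2-REH at each time, with a median log2 ratio of -1.23 at 90 min and -2.002 at 4 hr. That list was chosen with earlier results of these data known, so the count is no independent check. Cish was at 1.87 RPKM unstimulated, at 30.6 with IL-2 and 2.47 under IL-2-REH at 90 min, and at 26.1 and 2.45 at 4 hr.

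Tregs held more of most members than CD8+ T cells in the same condition. For Nr4a1, Nr4a3 and Egr2 the CD8+ value was below all 3 Treg values in 5 of 5 conditions, a pattern shown by 14.3% of 10825 genes expressed in either cell type. In a single condition the share of genes was 35.0% unstimulated, 32.5% and 39.3% at 90 min and 33.4% and 40.1% at 4 hr. For Nr4a2 and Egr1 this held in 4 of 5 conditions, the unstimulated libraries overlapping. For Egr3 it held in 1 of 5, and the CD8+ value lay inside the Treg range in all cytokine conditions. The mean Treg level of Nr4a1 was 7.94-fold the CD8+ level unstimulated and 39.1-fold with IL-2-REH at 4 hr, and that of Nr4a3 was 14.9-fold to 24.7-fold in the cytokine conditions. Unstimulated, the Nr4a3 mean was 24.7-fold the CD8+ level with replicate 1 and 4.30-fold without it, and the Nr4a1 value without it was 5.28-fold. For Egr1 the corresponding values were 1.22-fold unstimulated (1.43-fold without replicate 1) and at most 3.20-fold. The cell types came from different mice and were isolated by different methods, sorting among them, so cell type and isolation cannot be told apart.

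The genes that act with or beside the members were read from lists, which were chosen with earlier results of these data known. Egr4, Wt1 and the EGR corepressors Nab1 and Nab2 form 1 list of 4 tested genes. Between 90 min and 4 hr Nab1 fell by 1.02 ± 0.20 on the log2 scale (edgeR adjusted p = 0.019), and the list's median of -0.67 stood beside 0.04 over all genes. The list counts in this comparison stand beside 5.26% of all genes called lower and 4.38% called higher. Other immediate early genes had 5 of 19 lower and 0 higher (median -0.81). Among them Klf4, a zinc finger factor, fell by 2.13 ± 0.33, the AP-1 subunit Junb by 1.08 ± 0.23, the ERK phosphatase Dusp1 by 1.02 ± 0.24 and the antiproliferative Btg2 by 0.96 ± 0.23. With the replicate block 11 of 19 were lower, while the number lower over all 14992 genes went from 788 to 1653. Genes known as EGR2 and EGR3 targets had 3 of 13 lower and 0 higher (median -0.67), namely the death ligand Fasl (-1.93 ± 0.45), the inhibitory receptor Lag3 (-1.15 ± 0.26) and the ubiquitin ligase Rnf128 (-1.01 ± 0.27). Genes tied to NR4A in Tregs and exhausted T cells had 2 of 11 lower and 0 higher (median -0.35), the checkpoint receptor Ctla4 (-1.16 ± 0.28) and the nuclear factor Tox2 (-1.39 ± 0.19). In the calcium and NFAT list 2 of 11 were lower, Nfatc1 (-1.002 ± 0.24) and the calcineurin subunit Ppp3r1 (-0.55 ± 0.15). The RAS and ERK list had Mapk3 higher (0.90 ± 0.18) and Sos1 lower (-0.86 ± 0.24) of 12, and the SRF, CREB and MEF2 list had 0 of 15 called.

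At 90 min against unstimulated Tregs, some of the IL-2 and STAT5 targets passed the test. The lists were chosen with earlier results of these data known, so their counts are a description and no independent check. With IL-2 5 of 12 rose and 0 fell, beside 0.78% of all genes higher and 0.0734% lower (median 1.32 against -0.06 over all genes), among them Lama5 (2.78 ± 0.36), Socs1 (2.28 ± 0.38), Cish (2.12 ± 0.19) and Ecm1 (1.94 ± 0.27). With IL-2-REH 2 of 12 rose, beside 0.0934% of all genes, Lama5 (2.12 ± 0.35) and Cish (1.10 ± 0.18). Of the genes tied to NR4A, Ikzf4, the Treg factor Eos, rose by 1.60 ± 0.17 with IL-2 and 1.22 ± 0.17 under IL-2-REH. Foxp3, which is also among the Treg markers, rose by 1.33 ± 0.25 with IL-2. Any part of NR4A factors in these changes was not tested. Of the EGR2 and EGR3 targets, 1 of 13 rose, the semaphorin Sema7a, by 1.45 ± 0.21 with IL-2 and 1.64 ± 0.21 under IL-2-REH. Of the other immediate early genes, Dusp1 fell by 1.60 ± 0.34 with IL-2 and 0 of 19 rose. Each of these named genes kept its call without unstimulated replicate 1, where 8 and 5 of the 12 IL-2 and STAT5 targets rose with IL-2 and IL-2-REH, beside 7.09% and 6.95% of all genes higher. In CD8+ T cells, 8 of 19 other immediate early genes were more than 1 log2 unit lower at 90 min with IL-2 and 11 of 19 under IL-2-REH, with 0 higher, beside 4.43% and 6.11% of all expressed genes lower.

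Among themselves, 5 of the members varied together over the 15 Treg libraries, and Egr1 stood somewhat apart. The values given are Pearson's r of log2(RPKM + 1), described without a test because libraries of 1 condition or 1 replicate number share their source. Between the NR4A genes r was 0.874 to 0.939, between Nr4a1 and Egr2 0.953, and between Egr2 and Egr3 0.941. Egr3 had a lower r of 0.792 with Nr4a2 and 0.803 with Nr4a3. Egr1 had r of 0.344 with Nr4a3, 0.453 with Nr4a2, 0.617 with Nr4a1, 0.618 with Egr2 and 0.734 with Egr3. Outside the 6, the genes most alike were Tgif2 (r = 0.974), Itprip (0.964) and Per1 (0.959) for Nr4a1, Tob2 (0.956), Sh2d2a (0.953) and Ets2 (0.949) for Nr4a2, and Plcxd2 (0.983), Lrig1 (0.980) and Stk38l (0.977) for Nr4a3. For Egr2 they were Gimap6 (0.962), Tgif2 (0.959) and Nfkbid (0.958), and for Egr3 Plk3 (0.956), Helz (0.953) and Itprip (0.951). For Egr1 they were Rsl1d1 (0.954), the calcineurin-dependent factor Nfatc1 (0.946) and Snord100 (0.944). Each was picked as the highest of 10467 genes, which raises r by itself. Over the 5 CD8+ libraries the same partners ranged from -0.063 (Gimap6 with Egr2) to 0.963 (Lrig1 with Nr4a3).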

How the data were processed

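RNA was extracted from Tregs (15 libraries) and CD8+ T cells (5 libraries), and mRNA libraries were sequenced with 50-base single-end reads. Per the submitters' processing notes, the authors used Bowtie2 2.2.6, TopHat2 2.1.1, SAMtools 0.1.8, bedtools 2.25.0 and edgeR on the mm10 build. The deposited tables hold whole-number counts of reads per RefSeq transcript and RPKM values computed by the authors, and whether strand was used in counting is not given in the sources used here. The gene family and the lists were chosen with earlier results of these data known, although the rule for its rows uses symbols only.

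Counts of the transcript with most reads per symbol were tested in R 4.3.3 with edgeR 4.0.16 (TMM, filterByExpr, quasi-likelihood, 1 mean per group, all 15 Treg libraries, Benjamini-Hochberg over 14992 genes). DESeq2 1.42.0 and limma 3.58.1 served as alternatives. CD8+ libraries were compared as log2 ratios of the deposited RPKM with a pseudocount of 1, among genes whose RPKM averaged 1 or more. Genes named were the 6 members, for each list up to 4 called genes of largest change, the 3 genes best correlated with each member, and Ramp3 and Cish as checks of stimulation. Promoter windows were RefSeq's, and gene models GENCODE's. On data simulated for IL-2 at 90 min against unstimulated Tregs (14992 genes), edgeR recovered 58.0% of 200 genes changed by a log2 fold of 2, with 2.52% false calls. With the replicate block it recovered 54.5% with 3.54% false calls, and DESeq2 68.0% with 26.5%. The simulated libraries varied independently, with no effect of replicate number and no outlying library, so these rates may not hold for the real libraries. Fits without unstimulated replicate 1 were not simulated.

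Same-numbered Treg libraries deviated together from their group means (r from 0.121 to 0.840 over 30 pairs, mean 0.538). Differently numbered libraries had r from -0.663 to 0.300 over 60 pairs (mean -0.257). Deviations within a group cancel out, which lowers the latter values by itself, and the ranges overlap. Unstimulated replicate 3 had r of 0.121 with replicate 3 and 0.300 with replicate 2 of IL-2 at 4 hr. The pairing was thus less clear there. The numbers were taken to pair libraries, on the data alone, and a replicate block was fitted as an alternative.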

Additional observations from a re-analysis of the deposited data

How the results depend on the processing

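How many of the 6 members were called depended on the block and on replicate 1. With the replicate block they were 1 for the 4 cytokine groups averaged, 1 for IL-2 at 4 hr, 1 for IL-2-REH at 4 hr and 4 for 4 hr against 90 min, each 0 or 1 before. DESeq2 gave 1 for IL-2 at 4 hr and 5 for 4 hr against 90 min, and limma on log2(RPKM + 1) gave 1 for IL-2 at 4 hr. With the block and without unstimulated replicate 1 the counts were 5 for the groups averaged, 5 and 5 at 90 min, 4 and 5 at 4 hr, and 6 for 4 hr against 90 min. With the block and without replicate 1 of every group, chosen after seeing the data, they were 5, 5, 5, 3, 3 and 6 in that order, beside 28.3%, 22.7%, 20.9%, 19.6%, 15.8% and 29.6% of 14478 genes. Leaving out libraries gave 0 to 4 for the groups averaged, 0 to 5 at 90 min with each cytokine, 0 to 3 at 4 hr with each and 0 to 6 for 4 hr against 90 min. At a log2 ratio of 2 the CD8+ counts at 90 min were 1 with IL-2 and 0 under IL-2-REH. The block changed no call between IL-2-REH and IL-2.

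Reversed log2 values were those of Egr1 and Nr4a3. Egr1 with IL-2 at 90 min was 0.055 with the block and without unstimulated replicate 1, 0.012 with the block and without replicate 1, and -0.24 to 0.27 with libraries left out. With IL-2-REH at 90 min it was -0.43 to 0.085. Nr4a3 at 4 hr was 0.72 (pseudocount 1) and 0.75 (0.1) by limma for IL-2, against 0.52 and 0.54 for IL-2-REH. With the block it was 2.91 and 2.68 without unstimulated replicate 1 and 2.87 and 2.73 without replicate 1, and with libraries left out -1.40 to 2.95 and -1.86 to 2.86. For IL-2-REH against IL-2, Nr4a3 was -0.10 to 0.45 and Egr1 -0.075 to 0.32 with libraries left out. Without replicate 2 or without replicate 3 of every group, 0 of all genes were called for 4 hr against 90 min (2681 and 1434 under 0.05 unadjusted by edgeR), so the 0 members there say nothing about stability. The causes were not tested. Of 46 list-gene results, 0 reversed and 1 kept its call in every setting, 196 of 870 values falling short.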
